A study of Canis lupus familiaris with 186 samples.

Results

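The immune checkpoint ligands and receptors measured here are 9 genes: the ligands CD274 (PD-L1) and PDCD1LG2 (PD-L2), the T-cell receptors PDCD1 (PD-1), CTLA4, LAG3, HAVCR2 (TIM-3) and TIGIT, the receptor and ligand VSIR (VISTA), and the enzyme IDO1. They were chosen by name, and all 9 were found among the 37952 genes in the deposited table. Their RNA was measured in primary tumors of 186 dogs with osteosarcoma of a limb, 93 enrolled in the trial COTC021 and 93 in COTC022. The dogs were privately owned, of mixed age, breed and sex, had no macroscopic metastasis, and were biopsied before any treatment, after which they had amputation and carboplatin, with rapamycin in 1 arm. The labels give a trial for each dog and no arm, so the trial is the only group from the labels that was compared. Each arm of the paper also held 93 dogs, and whether trial and arm coincide is not given in the labels. Each tumor gave 1 library of bulk mRNA, in which fewer cells of a type and less RNA per cell cannot be told apart. Library totals ranged from 6587637 to 27420866 counts, with a median of 10797172. The deposited names of 50 libraries carry a doubled separator, 18 of them in COTC021 and 32 in COTC022. Their total was 19440471 counts at the median, and that of the other 136 libraries was 9851691.

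Checkpoint receptors restrain T cells that have met their antigen. PD-1 binds PD-L1 and PD-L2 on tumor and myeloid cells, CTLA4 competes with CD28 for CD80 and CD86, and LAG3, TIM-3 and TIGIT are further receptors that build up on chronically stimulated T cells. VISTA is carried mainly by myeloid cells, and IDO1 depletes tryptophan to make kynurenine and, like PD-L1, is induced by interferon-gamma.

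On the canine build GSD_1.0, CD274 lies on chromosome 1 from 94260510 to 94278519, and PDCD1LG2 follows 28311 bp away, from 94306830 to 94395104. Both overlap the long noncoding RNA LOC111096980. PDCD1 is on chromosome 25 from 51676302 to 51686322, and CTLA4 is on chromosome 37 from 12505745 to 12511890, where its neighbors are ICOS and CD28. LAG3 is on chromosome 27 from 7829072 to 7835123, 9899 bp from CD4. HAVCR2 is on chromosome 4 from 53905760 to 53918797, and TIGIT is on chromosome 33 from 19131089 to 19146839. VSIR is on chromosome 4 from 23238917 to 23266458, within the span of CDH23, and IDO1 is on chromosome 16 from 26131508 to 26146796, within the span of LOC475575. The libraries were made with a stranded mRNA kit, but how the counting treated strand is not given in the sources used here. It is therefore not known how fully reads of VSIR, IDO1 and the PD-1 ligands were told apart from those of the genes that overlap them. Across the 186 tumors, Spearman's rho with the overlapping gene was 0.17 for VSIR and CDH23, and 0.10 for IDO1 and LOC475575. It was 0.61 for CD274 and 0.88 for PDCD1LG2 with LOC111096980.

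One library stood apart before any comparison was made. The tumor of COTC022 dog 1709 had 880.4 CPM (counts scaled to the library total) of CD3E, a chain of the T-cell receptor complex, and the next library had 250.4 CPM. Its 14 macrophage markers summed to 9186 CPM, the most of any library, and its 8 osteoblast markers to 461 CPM, the least of any library, against a median of 23960 CPM. The library is labelled as primary osteosarcoma like the others, and it held the highest level of PDCD1LG2, PDCD1, HAVCR2, TIGIT and VSIR. Some of the results are also given without it.

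The PD-1 ligands were detected in most tumors, at levels that varied widely between dogs. CD274 had at least 10 counts in 148 of 186 tumors. Its level was 0 CPM at the lowest, 1.89 at the median and 20.5 at the highest in COTC021, and 0, 1.63 and 13.9 CPM in COTC022. The ranges of the trials overlapped almost entirely, and 2 tumors had no CD274 count. PDCD1LG2 had at least 10 counts in 164 tumors, with 0.225, 2.41 and 28.5 CPM at the lowest, median and highest in COTC021 and 0, 2.76 and 77.4 CPM in COTC022. The highest value was that of dog 1709, and the others in COTC022 ended at 26.0 CPM.

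Receptors of T cells were detected in fewer tumors, apart from LAG3. PDCD1 reached 10 counts in 16 tumors and had no count in 98, which allows a level of up to 0.129 CPM in the deepest of those libraries and 0.447 CPM in the shallowest (a floor of 3 counts, for counting error only). Its median was 0 CPM in each trial, with a highest value of 6.98 CPM in COTC021 and 14.1 CPM in COTC022. CTLA4 reached 10 counts in 37 tumors and had none in 58. Its lowest, median and highest levels were 0, 0.183 and 40.3 CPM in COTC021 and 0, 0.121 and 20.9 CPM in COTC022, so a few tumors lay far above the rest in both trials. TIGIT reached 10 counts in 45 tumors and had none in 52, with 0, 0.226 and 18.8 CPM in COTC021 and 0, 0.225 and 101 CPM in COTC022. HAVCR2 was low in nearly all tumors, at 0, 0.628 and 3.03 CPM in COTC021 and 0, 0.487 and 9.11 CPM in COTC022, and reached 10 counts in 60. Its detection followed depth, with 32 of the 50 double-separator libraries at 10 counts or more against 28 of the other 136. LAG3, which binds MHC class II, was detected in 170 tumors and had a count in all 186. It had 0.267, 4.72 and 49.8 CPM at the lowest, median and highest in COTC021, and 0.0822, 4.16 and 63.5 CPM in COTC022.

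VSIR was detected in all 186 tumors. It had 18.0, 111 and 290.4 CPM at the lowest, median and highest in COTC021 and 22.7, 97.5 and 450.1 CPM in COTC022, where the highest value was again that of dog 1709. IDO1 was detected in 122 tumors and had no count in 11. Its level was 0, 1.90 and 89.7 CPM at the lowest, median and highest in COTC021, and 0, 1.14 and 117 CPM in COTC022. CPM is not divided by gene length, so these levels are compared between tumors and not between genes.

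**Figure D1:**
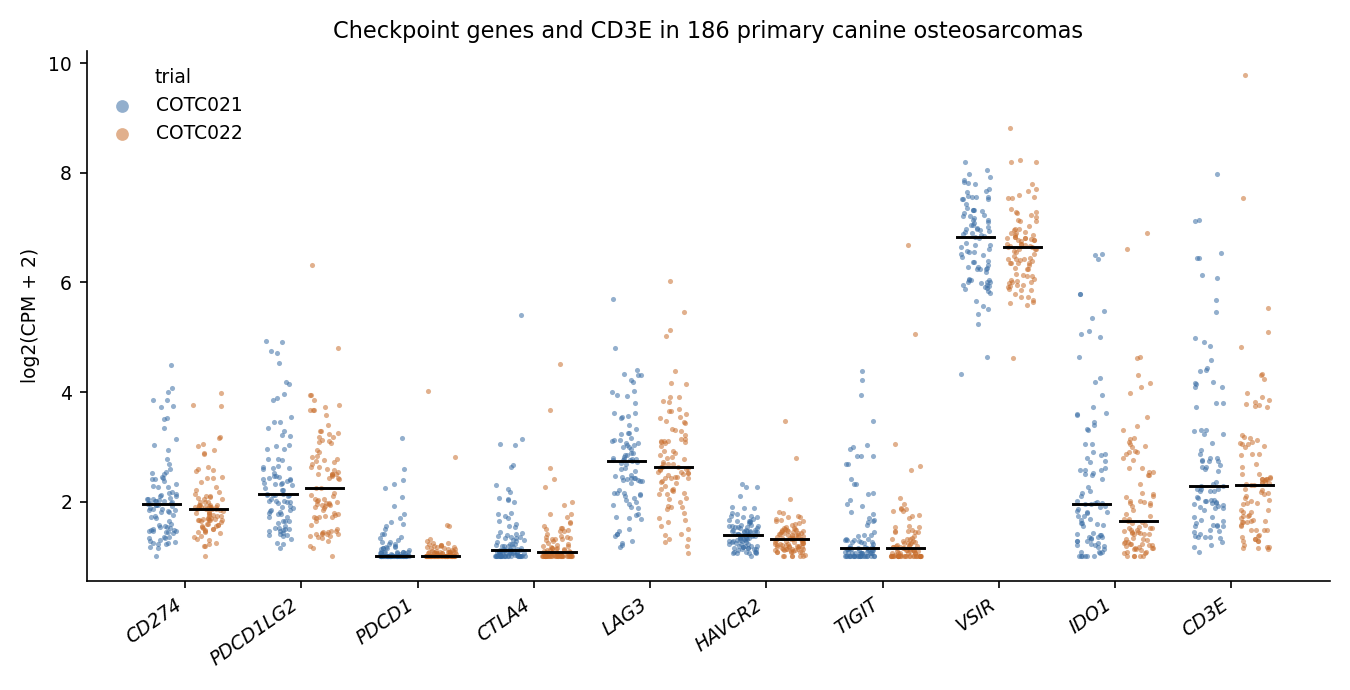
Levels of the 9 checkpoint genes and CD3E as log2(CPM + 2), with 1 point for each of 186 tumors, colored by trial, and a bar at the median of each trial (n = 93). The trials overlap for every gene, and VSIR is detected in all tumors. PDCD1 lies at the floor in most tumors. CTLA4 and TIGIT, with no count in 58 and 52 tumors, have medians just above it.

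Much of the RNA of some members came from few tumors. The 10 tumors with the highest value held 67.1% of the summed CPM of PDCD1, 66.8% of that of TIGIT, 61.2% of that of CTLA4 and 53.15% of that of IDO1, against 66.5% for CD3E. The share was 26.5% for LAG3, 27.2% for CD274 and 13.4% for VSIR. Dog 1709 was among the 10 highest for all 9 members and for CD3E, and the shares without it were not computed. Of the 10 tumors with the highest CD3E, 7 were also among the 10 highest for each of CD274, PDCD1LG2, CTLA4, LAG3, TIGIT and IDO1. This number was 8 for PDCD1, 4 for HAVCR2 and 2 for VSIR. The median tumor had 5 of the 9 members at 10 counts or more, and it was 6 in the double-separator libraries and 5 in the others. All 9 were detected in 10 tumors, and the fewest detected was 1, in 3 tumors.

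Some tumors had a member among its highest values and CD3E far below its own highest values. These were picked after their values were seen. Over all tumors CD3E was 2.90 CPM at the median and 7.20 CPM at the upper quartile, which dog 0603 below exceeds. The highest LAG3 level, 63.5 CPM in COTC022 dog 0606, came with 3.30 CPM of CD3E and no count of PDCD1. In COTC022 dog 0512, LAG3 was 30.4 CPM with 0.810 CPM of CD3E. The highest CD274 level of COTC022, 13.9 CPM in dog 1010, came with 1.11 CPM of CD3E, and in COTC021 dog 0603 PDCD1LG2 was 28.5 CPM with 7.86 CPM of CD3E. In COTC021 dog 0311, by contrast, CTLA4 was 40.3 CPM, LAG3 49.8 CPM and CD3E 250.4 CPM.

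No member passed the test between the trials, for which all tumors were taken before treatment. In the limma-voom fit across all genes that passed the low-count filter (at least 10 counts at the median depth in about the fraction 0.5 of libraries), 0 of the 5 members tested passed an adjusted p of 0.05, where 0.0149% of all genes did. The other 4 members, PDCD1, CTLA4, HAVCR2 and TIGIT, did not pass the filter. In the fit without it, 0 of the 9 members and 0% of all genes passed. With edgeR on the same unfiltered genes 4.64% of genes passed, and again 0 of the 9 members. The log2 difference of COTC022 against COTC021 was -0.07 ± 0.19 (SE, adjusted p = 0.940) for CD274, -0.03 ± 0.22 (adjusted p = 0.983) for PDCD1LG2 and 0.03 ± 0.21 (adjusted p = 0.981) for LAG3. IDO1 had the widest interval among the 5 in the filter, from -1.17 to 0.23 on the log2 scale. In the unfiltered fit, HAVCR2 gave -0.35 ± 0.18 with an unadjusted p of 0.0473 and an adjusted p of 0.492. The sign of some estimates differed between the groups of libraries. In the double-separator libraries alone, the difference of IDO1 was 1.10 ± 0.74 and that of CD274 0.72 ± 0.33, opposite in sign to that over all tumors, and neither passed (adjusted p = 0.762 for both). In the other libraries they were -1.28 ± 0.44 and -0.42 ± 0.25, and the difference between the groups of libraries was not tested.

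All 9 members rose with CD3E. The correlation of CD3E with the T-cell score was 0.94 over the tumors, and CD3E is itself 1 of the 9 markers in that score. Each slope is the log2 change of a gene for each doubling of CD3E, fitted with limma-voom with the trial as a covariate. Of the 5 members in the filter, 5 rose with CD3E, as did 16.3% of all genes tested. In the unfiltered fit all 9 rose, against 10.2% of genes. TIGIT and IDO1 rose nearly in proportion to CD3E. The slope was 0.97 ± 0.03 for TIGIT (adjusted p = 1.55e-79) and 0.96 ± 0.04 for IDO1 (adjusted p = 6.62e-60). CTLA4 followed with 0.79 ± 0.04 and PDCD1 with 0.62 ± 0.04. That of PDCD1, with its many zeros, was 0.96 with edgeR's quasi-likelihood fit, over 1.5 times the limma value. The ligands rose by 0.56 ± 0.03 for PDCD1LG2 and 0.44 ± 0.03 for CD274. The lowest slopes were those of LAG3 (0.31 ± 0.04), HAVCR2 (0.31 ± 0.04) and VSIR (0.15 ± 0.03, adjusted p = 2.26e-07), the last a 1.11-fold change for each doubling. The median slope of all genes in the filter was -0.01. Without dog 1709, the slopes of the 9 members ran from 0.14 for VSIR to 1.01 for IDO1, and all passed.

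Correlations with CD3E gave a similar order. Over the 186 tumors, Pearson's r on log2(CPM + 2) was 0.91 for TIGIT, 0.88 for IDO1, 0.85 for CTLA4, 0.80 for PDCD1, 0.78 for PDCD1LG2, 0.73 for CD274, 0.63 for HAVCR2, 0.45 for LAG3 and 0.43 for VSIR. Spearman's rho was 0.83, 0.80, 0.69, 0.65, 0.73, 0.64, 0.44, 0.26 and 0.39 in the same order. A rho of at least 0.5 with CD3E was reached by 2.44% of the genes in the filter. The permutation p was 1e-05, the smallest that 100000 resamples can give, for each of these values but the rho of LAG3, where it was 0.00028. After Benjamini-Hochberg adjustment over 108 relations of members with CD3E and marker scores, the rho of LAG3 had p = 0.000530 and the others p = 2.08e-05. Without the 2 tumors farthest from the median CD3E, r ran from 0.36 for VSIR and LAG3 to 0.90 for TIGIT.

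The trials, taken apart, gave a similar order, and the rho of LAG3 varied most between groups of libraries. Spearman's rho with CD3E was 0.83 in COTC021 and 0.82 in COTC022 for TIGIT, and 0.84 and 0.74 for IDO1. That of PDCD1 was 0.75 and 0.53, and that of CD274 0.72 and 0.55. LAG3 gave 0.34 in COTC021 (permutation p = 0.00099) and 0.19 in COTC022 (permutation p = 0.0631). In the 136 other libraries rho for LAG3 was 0.38 (permutation p = 1e-05), and in the 50 double-separator libraries it was -0.03 (permutation p = 0.835). The slope of LAG3 in those 50 libraries was 0.18 ± 0.08 (adjusted p = 0.0990). The difference of the slopes between groups of libraries, tested as an interaction, was -0.22 ± 0.09 for LAG3 with an unadjusted p of 0.0110 and an adjusted p of 0.457. For the members outside the filter it had the opposite sign. It was 0.17 ± 0.06 for TIGIT (unadjusted p = 0.00625) and 0.18 ± 0.07 for CTLA4 (unadjusted p = 0.0138). PDCD1 gave 0.18 ± 0.09 (unadjusted p = 0.0332) and HAVCR2 0.14 ± 0.07 (unadjusted p = 0.0557). No member passed in the interaction with library name, where 0% of genes in the filter and 0.200% without it passed. For the interaction with trial, no member and 0% of genes passed in either fit.

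**Figure D2:**
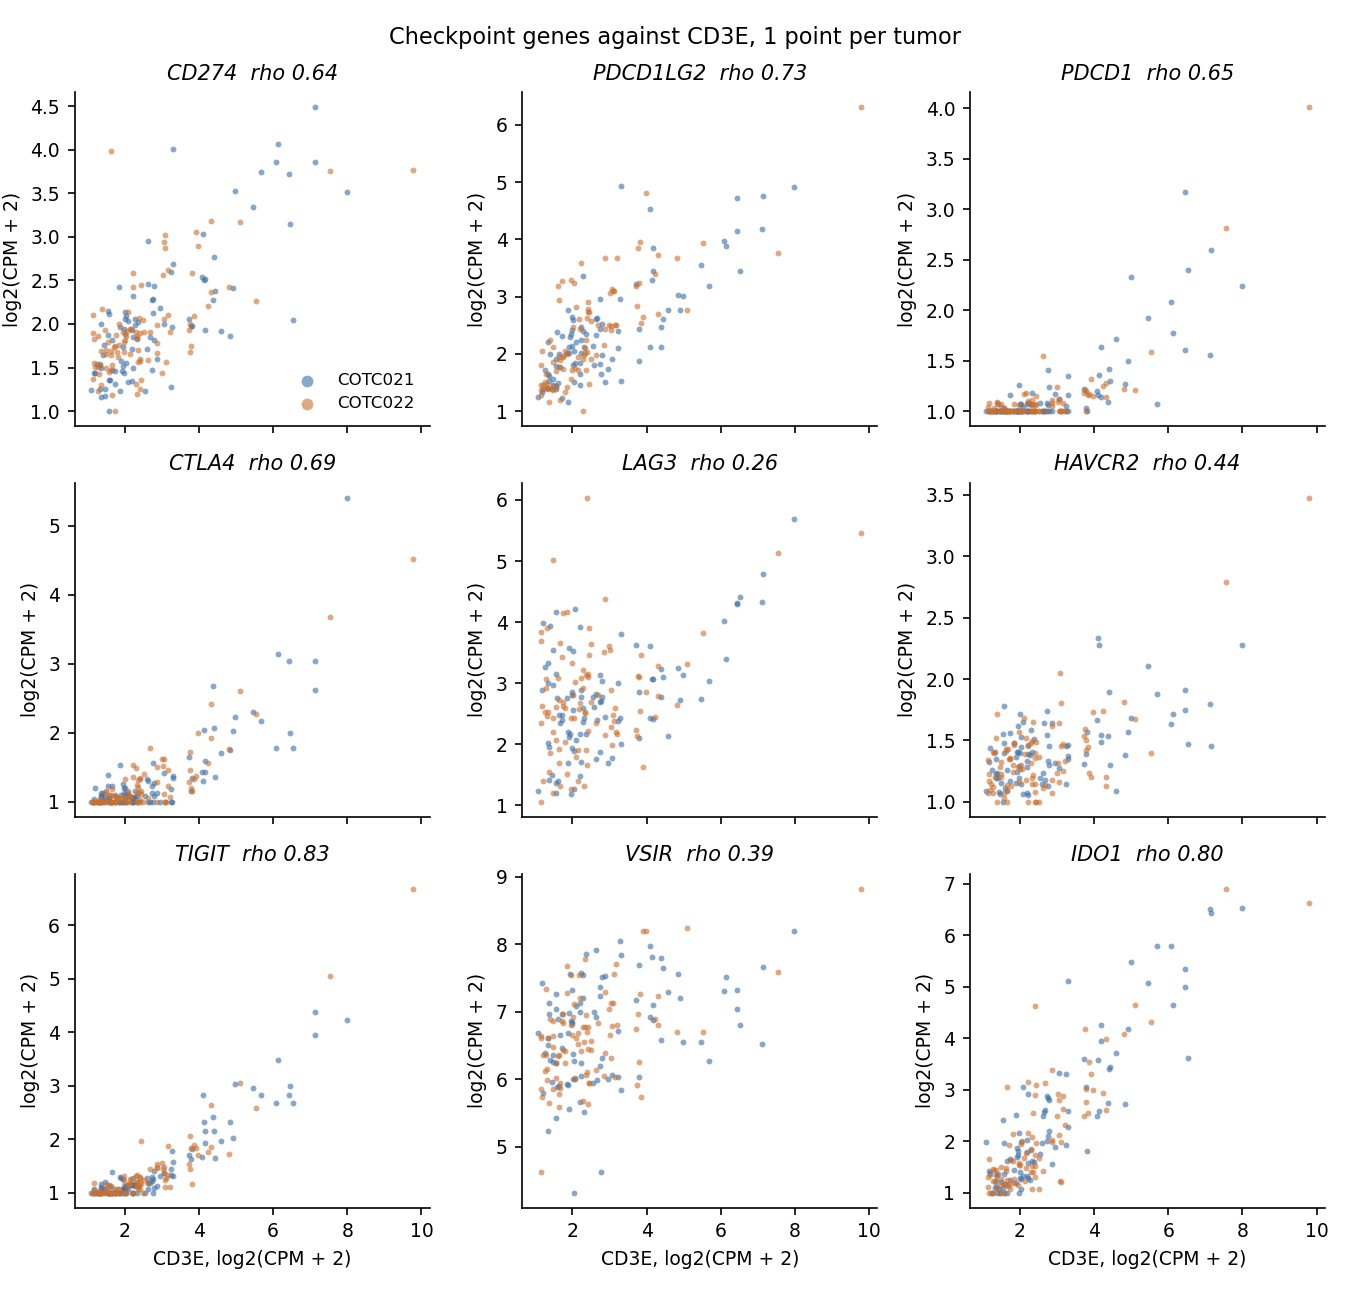
Level of each checkpoint gene against CD3E in the same tumor, both as log2(CPM + 2), with 1 point for each of 186 tumors, colored by trial. TIGIT (rho 0.83) and IDO1 (rho 0.80) climb with CD3E, TIGIT from values at or near the floor where CD3E is low. LAG3 (rho 0.26) and VSIR (rho 0.39) spread widely there.

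The T-cell and macrophage scores were fitted at once, and the members divided between them. The scores were the mean z-score of 9 T-cell and 14 macrophage markers that passed the filter, and their Pearson correlation over tumors was 0.62. Of the 5 members in the filter, 2 rose more with the T-cell than with the macrophage score, against 10.2% of all genes, and 2 more with the macrophage score, against 10.9%. In the unfiltered fit, PDCD1, CTLA4, HAVCR2 and TIGIT all leaned to the T-cell score, as 4.80% of all genes did.

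TIGIT leaned furthest to T cells. For each SD of the T-cell score it rose by 1.79 ± 0.08 on the log2 scale, and for each SD of the macrophage score its change was -0.08 ± 0.12, a difference of 1.87 ± 0.19 (adjusted p = 2.61e-16). IDO1, an enzyme that myeloid cells can make, showed the same pattern, with 1.74 ± 0.11 for T cells, -0.01 ± 0.14 for macrophages and a difference of 1.74 ± 0.22 (adjusted p = 5.65e-11), which passed in 17 of 19 settings. Of 8 listed genes of the interferon-gamma response in the filter, 6 also leaned to the T-cell score, against 10.2% of all genes. Among these 8, 0 leaned to macrophages, against 10.9%. The difference was 1.38 ± 0.18 for PDCD1 and 1.18 ± 0.20 for CTLA4. PDCD1 and TIGIT passed in 7 of the 7 settings run without the filter, and CTLA4 in 6 of 7. LAG3 leaned to T cells by 0.85 ± 0.20 (adjusted p = 0.000817) and passed in 13 of 19 settings. HAVCR2, which macrophages and dendritic cells can also carry, gave 0.54 ± 0.17 (adjusted p = 0.0222), and passed in 2 of 7 settings. It was lost without dog 1709 (adjusted p = 0.118), in either trial alone and in either group of libraries alone. CD274 gave 0.37 ± 0.16 and missed the threshold (adjusted p = 0.0845), but passed without dog 1709, with 0.56 ± 0.17 (adjusted p = 0.0110).

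PDCD1LG2 and VSIR were the members that leaned to macrophages. PDCD1LG2 rose by 1.01 ± 0.07 for each SD of the macrophage score and by 0.47 ± 0.05 for each SD of the T-cell score, and the difference of T-cell minus macrophage was -0.54 ± 0.11 (adjusted p = 3.98e-05). It passed in 15 of 19 settings. It missed within COTC021 (-0.37, adjusted p = 0.158) and in the double-separator libraries, where 0 of the 5 members in the filter passed. For VSIR the slopes were 0.36 ± 0.06 for macrophages and 0.08 ± 0.06 for T cells, with a difference of -0.28 ± 0.11 (adjusted p = 0.0421). This call for VSIR was held in 10 of 19 settings. The difference was -0.62 within COTC021 (adjusted p = 0.00880) and -0.04 within COTC022 (adjusted p = 0.906). It was -0.13 in the double-separator libraries (adjusted p = 0.877), and it also missed the threshold with edgeR (adjusted p = 0.0727) and DESeq2 (adjusted p = 0.0699). The difference between the coefficients of CD274 and PDCD1LG2 was not itself tested.

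**Figure D3:**
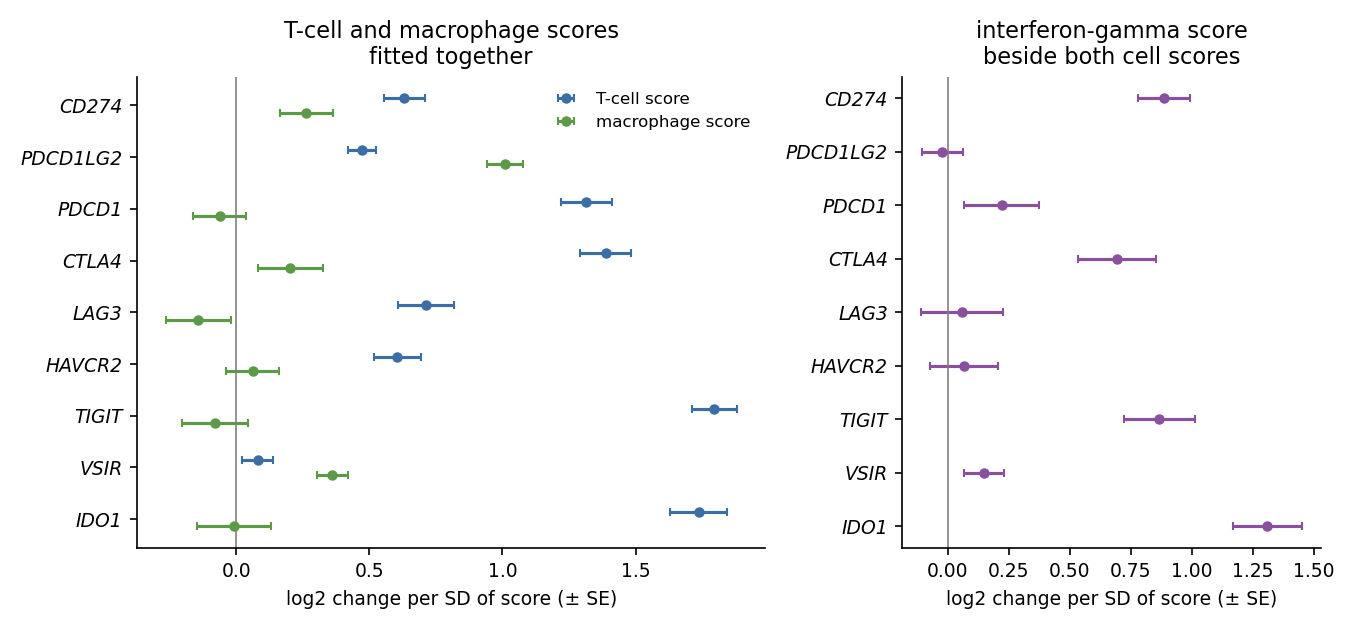
Change of each checkpoint gene on the log2 scale for each SD of the T-cell and macrophage scores, fitted together (left), and of the interferon-gamma response score beside both (right), as estimate ± SE over 186 tumors. The T-cell coefficients of TIGIT, IDO1, CTLA4 and PDCD1 lie from 1.31 to 1.79, above their macrophage coefficients, PDCD1LG2 (1.01 against 0.47) and VSIR (0.36 against 0.08) have the larger coefficient for macrophages, and IDO1, CD274, TIGIT and CTLA4 rise with the interferon-gamma score.

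With the T-cell and macrophage scores in the fit, 4 members still rose with the interferon-gamma response score. The scores are RNA of marker genes, so the number of T cells is not held fixed. In this fit 2 of 3 cytotoxic lymphocyte markers in the filter also rose. Of the 9 T-cell markers, 2 rose and 2 fell. The score held 8 genes that this cytokine induces (among them IRF1, GBP1, GBP5, TAP1, PSMB9, CIITA and WARS1), and its correlation with the T-cell score was 0.82. Of the 5 members in the filter, 2 rose with it, against 4.19% of all genes. IDO1 rose by 1.31 ± 0.14 for each SD (adjusted p = 2.42e-14), and CD274 by 0.89 ± 0.11 (adjusted p = 4.68e-12). In the unfiltered fit, TIGIT (0.87 ± 0.15, adjusted p = 2.83e-06) and CTLA4 (0.69 ± 0.16, adjusted p = 0.00234) rose as well, against 2.02% of genes. That of CTLA4 was lost within COTC021 and within each group of libraries, where the estimate stayed between 0.55 and 0.78. PDCD1LG2, although known as a target of interferon-gamma, gave -0.02 ± 0.08, with a 95% interval from -0.19 to 0.14. LAG3 gave 0.06 ± 0.17, HAVCR2 0.07 ± 0.14, VSIR 0.15 ± 0.08 and PDCD1 0.22 ± 0.16, none past the threshold.

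Taken one at a time, the marker scores ranked the members differently. PDCD1LG2 had its highest rho with the macrophage score, at 0.84 (r = 0.83, permutation p = 1e-05 for both), and the COTC021 tumors alone gave 0.83, those of COTC022 gave 0.85, and each group of libraries gave 0.84. Without the 2 tumors farthest from the median score r was 0.83. IDO1 had a rho of 0.82 with the interferon-gamma score (r = 0.87, permutation p = 1e-05 for both), with 0.83 in COTC021 and 0.81 in COTC022, and CD274 one of 0.67 (r = 0.79, permutation p = 1e-05 for both), with 0.75 and 0.57. VSIR had its highest rho with the macrophage score, at 0.54 (r = 0.57), and one of 0.51 with the dendritic-cell score. It also went with the score of 6 endothelial markers at a rho of 0.52 (r = 0.52, permutation p = 1e-05 for both), and against the score of 8 proliferation genes at -0.49 (r = -0.50, permutation p = 1e-05 for both). Within the trials these were 0.49 and 0.54 for endothelial cells, and -0.54 and -0.47 for proliferation. Without the 2 farthest tumors, r was 0.51 and -0.51. By rho, VSIR was the only member with an adjusted p under 0.05 against proliferation, and by r PDCD1LG2 also had one (r = -0.16, adjusted p = 0.0453 by permutation). With the osteoblast score, 8 of 9 members had a negative rho with an adjusted p under 0.05, the lowest -0.31 for CD274, and the exception was LAG3 at -0.08. The share of all genes with such a rho was not computed, so this count cannot be read as particular to the members. The part of the osteoblast level in the relations with CD3E was not tested.

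**Figure D4:**
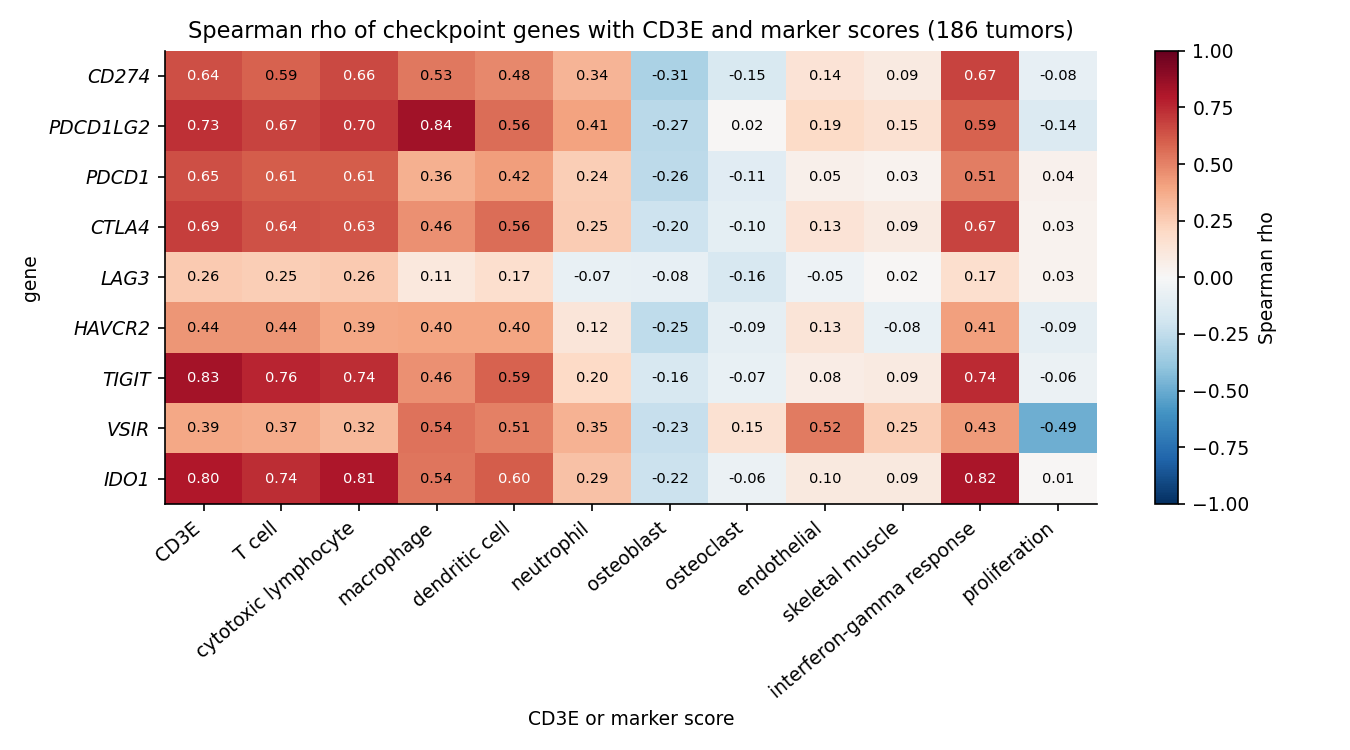
Spearman's rho of each checkpoint gene with CD3E and with 11 marker scores over 186 tumors, printed in each cell and colored from -1 (blue) to 1 (red). In the columns of CD3E and of the T-cell, cytotoxic and interferon-gamma scores, rho is above 0.5 for every gene but LAG3, HAVCR2 and VSIR. The macrophage column is highest for PDCD1LG2 (0.84). VSIR has the values 0.54 for macrophage, 0.52 for endothelial and -0.49 for proliferation.

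The genes with a symbol whose pattern was most like that of each member, by rho on TMM log2 CPM over the 186 tumors, are given as a description. For CD274 they were GIMAP4 (0.70), B2M (0.67), GIMAP7 (0.67), PSMB8 (0.66) and HLA-DRB1 (0.66), among which B2M, PSMB8 and HLA-DRB1 serve antigen presentation. Those of PDCD1LG2 were the leukocyte genes CD53 (0.89) and CTSS (0.89), then IGSF6 (0.86), AIF1 (0.86) and SASH3 (0.85). PDCD1 was nearest to CD3E (0.64), LCK (0.61), CLEC2D (0.60), CXCR6 (0.59) and CCL5 (0.59). CTLA4 had IL2RB (0.71), IDO1 (0.69), OASL (0.69), SECTM1 (0.68) and CD3E (0.68), and TIGIT had CD3E (0.83), CLEC2D (0.76), CXCR6 (0.74), IFGGB2 (0.74) and NLRC5 (0.73). IDO1 was nearest to SECTM1 (0.81), CD3E (0.79), IFGGB2 (0.78), XAF1 (0.78) and PSMB8 (0.78). Among the nearest to HAVCR2 were CYBB (0.57), DLA-DQA1 (0.55), FYB1 (0.54) and DOCK2 (0.51). VSIR had LMO2 (0.67), GAB2 (0.67), SH3TC1 (0.66), TRIM34 (0.66) and HCLS1 (0.66). No gene with a symbol in the filter came as close to LAG3, where the nearest were ITGB7 (0.51), FAIM2 (0.49), RGS14 (0.47), TMEM175 (0.46) and PTGS1 (0.45).

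The 36 pairs of members all had a positive rho over the tumors, with a median of 0.39. The highest were TIGIT with IDO1 (0.73), CTLA4 with IDO1 (0.70) and CTLA4 with TIGIT (0.70), and the lowest was LAG3 with VSIR (0.02). After the part of each member that goes with CD3E and trial was taken out, the median fell to 0.09 and the range was from -0.15 to 0.63. The pairs that remained highest were receptors of T cells, with 0.63 for CTLA4 and TIGIT, 0.53 for PDCD1 and TIGIT and 0.51 for PDCD1 and CTLA4. CD274 and IDO1 followed with 0.35. The ligands CD274 and PDCD1LG2, next to each other in the genome, went from 0.56 to 0.10. These values have no test, and residuals of genes with many zeros share the floor at 0 counts. The median rho over pairs was 0.46 for COTC021 tumors and 0.35 for COTC022 tumors. By library name it was 0.48 with the doubled separator and 0.38 without. The rho was positive for 36 pairs in COTC021, 35 in COTC022 and 33 in the libraries with the doubled separator.

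**Figure D5:**
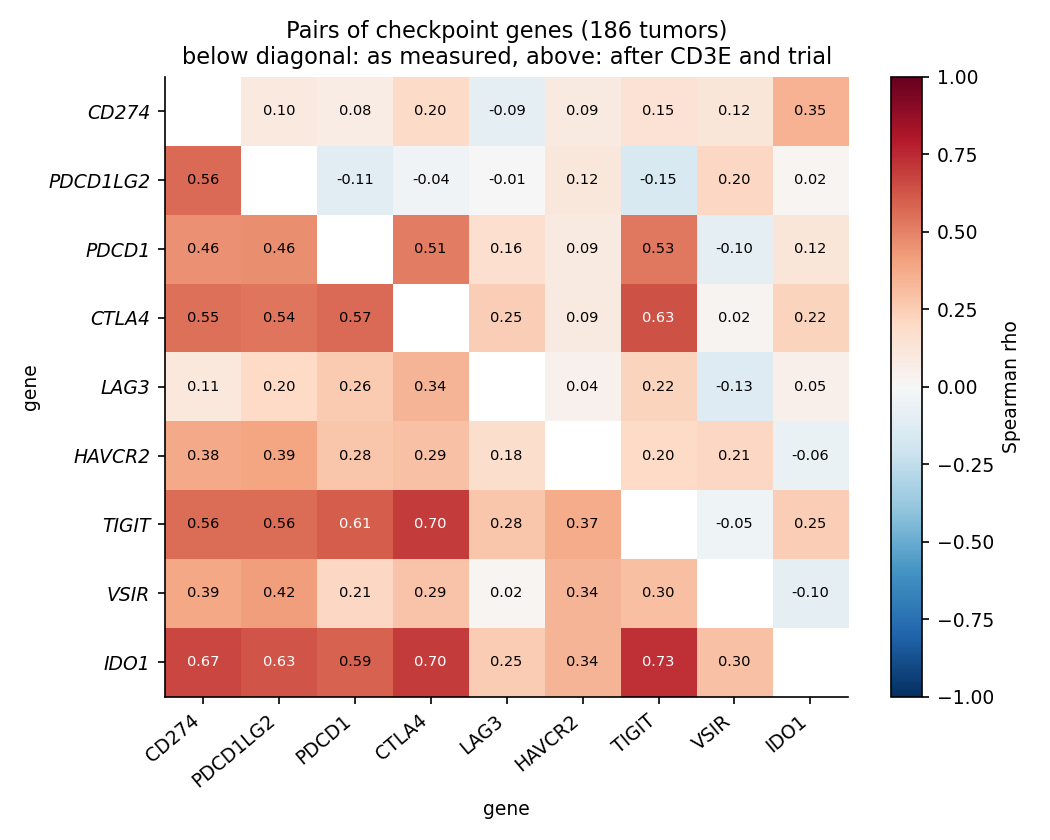
Spearman's rho for the 36 pairs of checkpoint genes over 186 tumors, as measured below the diagonal and after CD3E and trial were taken out above it. Most pairs fall toward 0 above the diagonal, and CTLA4 with TIGIT (0.63), PDCD1 with TIGIT (0.53) and PDCD1 with CTLA4 (0.51) do not.

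Other genes of these pathways were examined as lists. Of 25 partner genes on the ligand side, 18 passed the filter, and with CD3E 9 rose, 2 fell and 7 did not pass, with a median slope of 0.10. Over all genes in the filter, 16.3% rose with CD3E and 15.4% fell, with a median of -0.01, and the counts of the other lists stand beside the same shares. CD80 (0.43 ± 0.03) and CD86 (0.40 ± 0.03), the ligands of CTLA4 and CD28, rose, as did CD48, TNFRSF14, SELPLG and LGALS9, a reported ligand of TIM-3. CD276 (B7-H3) fell by 0.08 ± 0.02 on the log2 scale for each doubling of CD3E and CD200 fell by 0.11 ± 0.03. Of the TIGIT ligands, NECTIN2 rose by 0.10 ± 0.02 (adjusted p = 6.66e-07) and PVR gave -0.04 ± 0.02 (adjusted p = 0.138). Between the cell scores, CD86 leaned to macrophages by -0.99 ± 0.11, CD48 by -0.49 ± 0.08 and CD80 by -0.27 ± 0.11, which missed the threshold (adjusted p = 0.0636). Among the 18, 6 leaned to macrophages, where 10.9% of all genes did, 1 to T cells, where 10.2% did, and 11 did not pass.

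Of 19 partner genes on the receptor side, 6 passed the filter and 6 rose with CD3E, with a median slope of 0.38. CD226, the activating counterpart of TIGIT, rose by 0.71 ± 0.03 and leaned to T cells by 1.22 ± 0.14. LAIR1, VSIG4, SIRPA and KLRG1 leaned to macrophages, by -0.64 ± 0.09, -1.51 ± 0.12, -0.32 ± 0.08 and -0.97 ± 0.10. KLRG1 is known as a receptor of lymphocytes. CD40 leaned to T cells by 0.37 ± 0.11 and rose with the interferon-gamma score by 0.53 ± 0.08 (adjusted p = 5.76e-08).

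Among 10 genes of the kynurenine and adenosine routes, 7 passed the filter. With CD3E, 4 rose, 1 fell and 2 did not pass. KYNU, which acts on kynurenine downstream of IDO1, rose by 0.41 ± 0.03 but leaned to macrophages by -0.62 ± 0.13, where IDO1 leaned to T cells. ENTPD1, ADORA2A and AHR rose by 0.16 to 0.19, and NT5E (CD73), which makes adenosine, fell by 0.13 ± 0.05. Of 11 regulators tied to T-cell exhaustion, 8 passed the filter and 5 rose. BATF rose by 0.44 ± 0.03 and TOX by 0.27 ± 0.04. TCF7, a factor of less differentiated T cells, gave 0.004 ± 0.037 (adjusted p = 0.947).

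The genes around CD274 were examined last. Of the 15 genes listed, 10 lie on chromosome 1 with the PD-1 ligands, and 8 of these passed the filter. With CD3E, JAK2 rose (0.11 ± 0.02, adjusted p = 7.26e-05), 0 fell and the others did not pass. The other 5 lie on chromosome 11 in the canine annotation and are not neighbors of the ligands in the dog, and of the 3 that passed the filter RANBP6 (0.10 ± 0.02) and KDM4C (0.05 ± 0.02) rose. On TMM log2 CPM, rho with CD274 was 0.42 for JAK2, the kinase 149547 bp away that signals for interferon-gamma, and 0.21 for PLGRKT, the nearest gene at 8606 bp. RIC1, on the far side of PDCD1LG2, gave 0.18, and ERMP1 gave -0.15. At the LAG3 locus, rho on log2(CPM + 2) was 0.08 with CD4 and 0.23 with PTMS, and at the CTLA4 locus it was 0.73 with ICOS and 0.39 with CD28.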

How the data were processed

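Expected counts for 37952 genes were deposited by the authors, who trimmed reads with cutadapt, aligned them with STAR 2.7.0f to the canine build GSD_1.0 and counted with RSEM 1.3.1. These deposited expected counts are not normalized, 3.07% were not whole numbers, and they were rounded. Of 198 columns, 12 match no sample label and were not used. No 2 libraries held identical values. Each dog is 1 sample, and trials were taken from the labels.

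Genes were filtered with filterByExpr of edgeR 4.0.16 (a proportion of 0.5, a large.n of 5 and a count of 10 as minimum), which kept 13422. TMM factors and voom weights were fitted with limma 3.58.1 in R 4.3.3, with two-sided tests and Benjamini-Hochberg adjustment over all genes tested. The predictor CD3E was TMM log2 CPM with a prior count of 2. Members outside the filter were taken from a fit of all genes with a count. DESeq2 1.42.0 and the quasi-likelihood test of edgeR were run as alternatives. The filtered limma-voom fit was run on simulated data with set trial differences and CD3E slopes, and the other fits were not. Correlations used log2(CPM + 2), with CPM by library total, in Python 3.11.15 with scipy 1.17.1, numpy 2.4.6 and pandas 2.3.3, and figures matplotlib 3.10.9. A permutation test had 100000 resamples and was two-sided.

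The members and lists were chosen with earlier results of these data known. Genes named are the 9 members, CD3E, the 5 nearest genes with a symbol by rho for each member, and from each list up to 6 with the lowest adjusted p or against the majority. PVR, NECTIN2, TCF7, CD28, ICOS, PTMS, CD4 and the neighbors of CD274 were also named, after their values were seen. Some genes that these rules name are not reported here. Gene lengths and sequences were not used here, and the clusters and outcomes of the dogs were not analysed here, since the labels do not give them.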

Additional observations from a re-analysis of the deposited data

How the results depend on the processing

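The rise of all 9 members with CD3E passed under every alternative run, except for LAG3 in the double-separator libraries (0.18, and 0.17 without the filter). Genes called for CD3E numbered 4248, and 2274 in the double-separator libraries, 2082 in the others, 1832 in COTC021 and 2804 in COTC022. For the trial, 2 genes were called, against 129 with edgeR, 71 with DESeq2, 8 in the other libraries, and 0 without the filter or in the double-separator libraries. Without the filter, edgeR called 1395. For the interaction with library name, 0 were called, 19 with edgeR and 60 without the filter.

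The contrast of T cells with macrophages called 2827 genes, and 239 in the double-separator libraries, 1464 in COTC021 and 1310 in COTC022. Of the 5 members in the filter it called 4, but 0 in the double-separator libraries and 2 in COTC022, and of the other 4 members, all called over all tumors, 2 in the double-separator libraries and 3 in the other libraries, in each trial and without dog 1709. For interferon-gamma, 1122 genes were called, and 250 in the double-separator libraries, 505 in the others, 577 in COTC021 and 305 in COTC022. Of the 4 members outside the filter 2 were called, but 1 in the double-separator libraries, 1 in the others and 1 in COTC021. The cause of these changes was not tested, beyond fewer samples in each subset.

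Values that turned sign, none of which passed in either direction, were mostly trial differences. In the double-separator libraries these were 0.72 for CD274, 0.43 for PDCD1LG2, 0.34 for VSIR, 1.10 for IDO1, and without the filter 0.84 for PDCD1, 0.99 for CTLA4, 0.21 for HAVCR2 and 1.07 for TIGIT. PDCD1LG2 was 0.0743 with edgeR, 0.0619 with DESeq2 and 0.26 with CD3E as a covariate, VSIR 0.00189 with that covariate, and TIGIT 0.45 with edgeR. LAG3 was -0.00539 with library name as a covariate, -0.0643 in the other libraries and -0.0135 without dog 1709. The interaction with library name was 0.0778 for PDCD1LG2 and 0.0165 for IDO1 with edgeR. The interferon-gamma slope of PDCD1LG2 was 0.12 in the other libraries and 0.0402 in COTC021, and that of LAG3 was -0.11 with edgeR, -0.12 with DESeq2, -0.11 in the double-separator libraries and -0.18 in COTC021.

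Detection counts depend on depth. PDCD1 was found in 30 tumors at 5 counts and 8 at 20 counts, and HAVCR2 in 123 and 17. Fits without dog 1709, of the unfiltered genes within subsets and with CD3E as a covariate were added after the data were seen. No paired analysis was possible because the dog numbers are not shared between the trials.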
